A study of Mus musculus with 6 samples.

Results

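The genes of the neutrophil granules were followed in mouse blood by ATAC-seq, an assay in which the Tn5 transposase cuts open chromatin and leaves peaks of reads over accessible DNA. The set held 10 genes named for 3 stages of granule formation. The primary granule genes were Mpo, Elane, Prtn3 and Ctsg, the secondary granule genes were Ltf, Camp, Lcn2 and Ngp, and the tertiary granule genes were Mmp8 and Mmp9. All 10 were found in the GENCODE annotation of the mouse genome GRCm39, among 21757 protein-coding genes. A peak was given to a gene when its summit lay in the gene body or within 3 kb of any of its annotated transcription starts. Over 6 libraries these peaks merged into 19 regions out of 62876, with 7 regions at primary, 3 at secondary and 9 at tertiary granule genes. Of the 10 genes, 7 had a peak in at least 1 library.

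The 3 control mice stayed in normal oxygen. The 3 mice of the HADA group (high altitude de-acclimatization) had lived in a hypobaric chamber with the thin air of high altitude and had then gone back to normal oxygen. Per the study's methods the mice were male C57BL/6j animals, bought at 8 weeks of age, and the stay in the chamber was 28 days. The time between return and blood collection for these libraries is not given in the sources used here. Per the labels each library held unsorted white blood cells after lysis of the red cells, and the peaks of each library had been called by themselves. The paper is not uniform on this point, since its methods speak of leukocytes and its results of PBMC, a preparation that leaves most neutrophils out. Which of these was used bears on what every value at a granule gene measures.

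Neutrophils fill their granules in sequence as they mature in the bone marrow. Promyelocytes make the primary or azurophil granules, which carry myeloperoxidase and the serine proteases. Myelocytes and metamyelocytes make the secondary or specific granules, which carry lactoferrin and other antimicrobial proteins. Band cells and segmented cells make the tertiary or gelatinase granules, which carry matrix metalloproteinases. Mmp8 is often counted with the secondary granules and was kept here with Mmp9, as the set names it. Circulating neutrophils are mature cells, so in blood the genes of the early stages are known to be largely silent.

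Heights were read at summits. The summit pileup is the number of overlapping read fragments at the top of a peak. It was divided by the median summit pileup of the same library over the 23970 regions that had a peak in all 6 libraries. The result is called the relative height, and a relative height of 1 is that of the median shared region. A region with no peak in a library is written as not listed, and its call limit is the highest pileup that would have stayed below the library's own peak threshold at the local background of that region. In bulk samples such as these, fewer cells of a type and less open chromatin per cell cannot be told apart.

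The libraries held between 34045 and 45799 peaks. Median shared summit pileups were 49 to 58 in control against 77 to 92 in HADA libraries, and background pileups, which overlapped, were 1.69 to 2.05 in control against 1.99 to 2.34 in HADA libraries. Markers of a white cell mixture were present. Of 8 mature neutrophil genes 6 had a peak in all 6 libraries, as had 5 of 6 T cell genes and 4 of 6 B cell genes. Ly6g, a defining surface marker of mouse neutrophils, had a peak in control 3 only. Control 3 stood apart from the other 5 libraries, with the fewest peaks, the highest summed height of mature neutrophil genes (24.4) and the lowest of B cell genes (1.14). Values without control 3 are given beside the tested regions, the stages and the lists.

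The open DNA that carried the main values is shown here, as windows of 201 bases centred on the summit and read on the strand of the gene. The sequence is GRCm39, on the plus strand in all 8 windows, and windows that reached an untranslated exon were shortened. Capitals mark matches to short motifs of factors known to bind granule genes, searched on both strands: C/EBP (TTGCNNAA), PU.1 (GAGGAAG), RUNX (TGTGGT) and AP-1 (TGANTCA). A match is a run of letters and not a bound site. The tallest region of the set, in the Mmp9 gene, comes before the Mmp9 region listed in HADA libraries alone and the region at the canonical Mmp9 start. They are followed by the Mmp8 start, the Ltf intron and Ltf start, both listed in control libraries alone, and the pair of regions at Prtn3 and Elane that every library shared.
Mmp9 intron, chr2:164784905-164785105: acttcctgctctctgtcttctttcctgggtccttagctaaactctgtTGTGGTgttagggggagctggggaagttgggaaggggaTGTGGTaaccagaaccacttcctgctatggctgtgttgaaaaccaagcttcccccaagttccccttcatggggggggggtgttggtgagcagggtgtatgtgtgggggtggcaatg
Mmp9 upstream, chr2:164780795-164780995: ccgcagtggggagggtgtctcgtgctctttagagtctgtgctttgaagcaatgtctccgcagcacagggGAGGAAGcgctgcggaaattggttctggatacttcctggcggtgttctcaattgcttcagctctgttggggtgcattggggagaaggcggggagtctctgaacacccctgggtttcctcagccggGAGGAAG
Mmp9 start, chr2:164789999-164790138: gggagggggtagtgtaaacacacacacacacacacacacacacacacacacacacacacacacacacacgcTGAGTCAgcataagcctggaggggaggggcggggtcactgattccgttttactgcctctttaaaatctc
Mmp8 start, chr9:7558222-7558422: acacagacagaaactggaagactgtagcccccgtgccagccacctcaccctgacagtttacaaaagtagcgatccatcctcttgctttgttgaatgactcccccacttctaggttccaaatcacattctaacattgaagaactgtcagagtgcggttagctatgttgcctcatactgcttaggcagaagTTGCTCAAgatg
Ltf intron, chr9:110866609-110866809: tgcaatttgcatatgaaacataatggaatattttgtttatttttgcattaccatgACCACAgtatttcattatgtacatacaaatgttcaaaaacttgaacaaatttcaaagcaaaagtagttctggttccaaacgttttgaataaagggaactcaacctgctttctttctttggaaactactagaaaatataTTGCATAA
Ltf start, chr9:110848136-110848336: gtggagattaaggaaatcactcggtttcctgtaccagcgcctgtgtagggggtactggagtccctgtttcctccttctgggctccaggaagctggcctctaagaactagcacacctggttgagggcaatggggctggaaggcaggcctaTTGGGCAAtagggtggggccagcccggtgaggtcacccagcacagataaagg
Elane and Prtn3, chr10:79719436-79719636: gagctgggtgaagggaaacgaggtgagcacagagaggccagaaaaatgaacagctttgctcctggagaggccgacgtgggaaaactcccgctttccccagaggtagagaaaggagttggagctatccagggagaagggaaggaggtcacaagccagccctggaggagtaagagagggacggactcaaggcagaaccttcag
Prtn3 intron, chr10:79713541-79713741: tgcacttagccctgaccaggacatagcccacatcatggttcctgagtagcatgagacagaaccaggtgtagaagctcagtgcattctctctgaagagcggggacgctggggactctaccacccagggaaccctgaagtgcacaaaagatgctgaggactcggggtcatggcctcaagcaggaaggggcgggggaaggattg

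Among all 62876 regions, 8.69% of windows held the C/EBP motif, 11.8% the PU.1 motif, 17.6% the RUNX motif and 5.52% the AP-1 motif. The C/EBP motif was found in 4 of the 19 granule regions, at the Mmp8 start, in the last part of Mmp8, at the Ltf start and in the Ltf intron. The RUNX motif was likewise found in 4 of the 19, the PU.1 motif in 3 and the AP-1 motif in 2. The Mmp9 intron held 2 RUNX matches, the upstream Mmp9 region 2 PU.1 matches and the canonical Mmp9 start 1 AP-1 match. The windows at Prtn3, at Elane and at Lcn2 held none of these motifs. Of the GATA motif (AGATAAG), in 1.74% of all windows, no granule window had a match.

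The number of libraries with a peak varied by gene and stage. Over all protein-coding genes, 58% had a peak in all 6 libraries, 29.2% had none and 12.8% had a peak in 1 to 5 libraries. Both tertiary genes had a peak in every library. Of the primary genes Elane and Prtn3 had a peak in every library, Mpo had a peak in 2 control libraries, and Ctsg, the cathepsin G protease gene, had none. No secondary gene had a peak in all libraries. Ltf and Lcn2 each had a peak in 2 control libraries, and Camp and Ngp had none anywhere. The genes called in control 1, 2 and 3 numbered 6, 5 and 7, against 4 in each HADA library. The plot of relative heights by library shows the regions that carry these calls.

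**Figure D1:**
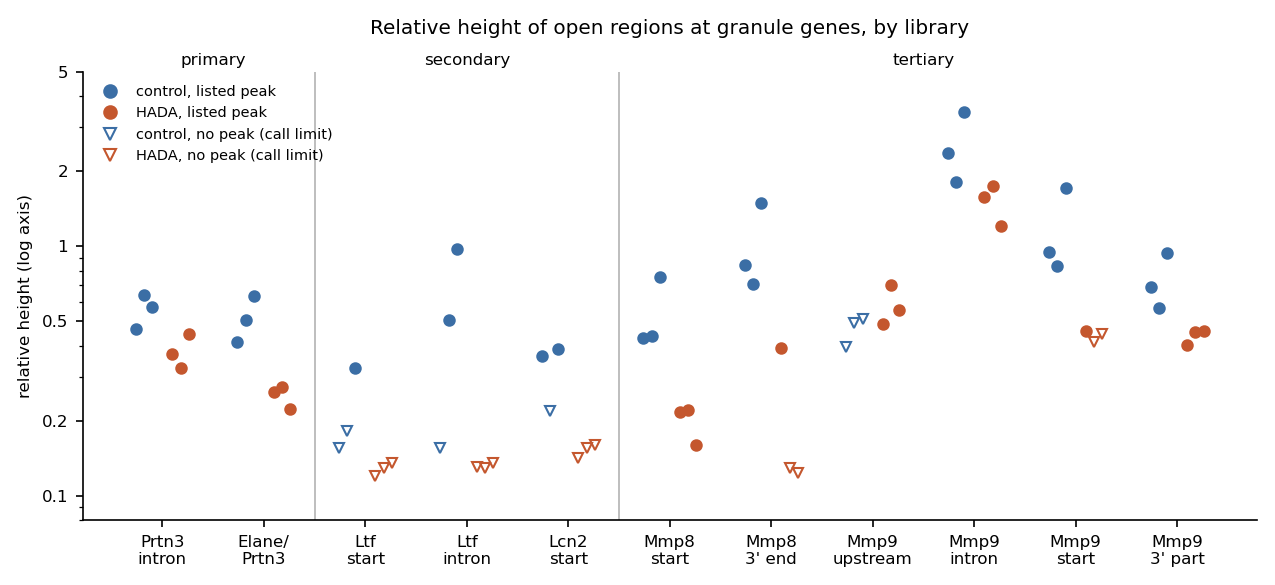
Relative height (log axis) of 11 of the 19 granule regions, with 1 symbol per library. Filled circles are listed peaks, and open triangles mark the call limit of a library with no peak there. Control circles lie above HADA circles at the 5 regions listed in all libraries, Ltf and Lcn2 have control circles alone, and the upstream Mmp9 region has HADA circles alone.

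Mpo encodes myeloperoxidase, the most abundant enzyme of primary granules. Its peaks were at the edge of detection. An intronic region (chr11:87686255-87686579) was listed in control 1 alone with a pileup of 7, the lowest pileup of any peak in that library. An exonic region (chr11:87692992-87693588) was listed in control 3 alone with a pileup of 11. The call limits of the other libraries at these places were pileups of 6 to 8, so the Mpo peaks stood little above the least that could be listed. The canonical Mpo start had no peak.

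Elane and Prtn3 encode neutrophil elastase and proteinase 3, the serine proteases of primary granules. They lie in a row on chromosome 10, with canonical starts 6.63 kb apart. The region between them (chr10:79719275-79719937) is intergenic, past the end of Prtn3 and 2545 bases before the Elane start, and it was counted for both genes. Its pileups were 24, 28 and 31 in control against 24, 21 and 18 in HADA libraries. The relative heights were 0.414, 0.509 and 0.633 in control against 0.261, 0.273 and 0.222 in HADA libraries, so each HADA library lay below each control library. The mean was 0.519 ± 0.110 in control against 0.252 ± 0.0264 in HADA libraries (SD, n = 3 each). Regions listed in all libraries were compared with limma, which fits each region and steadies its spread by that of all regions, and p-values were adjusted over all 23970. On the log2 scale the region fell by 1.03 ± 0.205 (SE), with a limma adjusted p of 0.0114, and without control 3 it fell by 0.92 with an adjusted p of 0.0109. The call was lost with pileups divided by the library background (−0.65, adjusted p 0.0612), under quantile normalization (−0.66, 0.0678) and on the rank of the fold enrichment (adjusted p 0.116).

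The Prtn3 intron region (chr10:79713186-79714038) lay 1807 bases before the canonical Prtn3 start, inside the longer transcripts of the gene. Its relative heights were 0.466, 0.636 and 0.571 in control against 0.370, 0.325 and 0.444 in HADA libraries. The groups did not overlap, with a log2 difference of −0.56 ± 0.199 (SE), but limma gave an adjusted p of 0.0551, which did not pass 0.05. Without control 3 it was −0.58 with an adjusted p of 0.0637. The call turned without control 1, where the difference was −0.67 with an adjusted p of 0.0377, and with summits within 250 bp merged, where it was −0.58 with 0.0467. It did not pass with any other library left out (0.0637 to 0.211). With pileups over background it was −0.18 (adjusted p 0.635) and under quantile normalization −0.31 (0.215), and on the rank of the fold enrichment the adjusted p was 0.312. The pileups themselves overlapped, at 27, 35 and 28 in control against 34, 25 and 36 in HADA libraries. The region at the most distal Prtn3 start (chr10:79710020-79710661) overlaps the start of Plppr3 on the other strand. ATAC-seq carries no strand, so the region may belong to either gene, and it is counted for Prtn3 here by its position. It was listed in 5 libraries, with relative heights of 0.328 in control 1, 0.429 in control 3 and 0.293, 0.377 and 0.420 in HADA libraries, and these ranges overlapped. Control 2 had a call limit of 0.236 there.

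The last pair of Prtn3 regions lay in exons near internal starts. One (chr10:79716785-79717564) was listed in HADA 2 and HADA 3 with pileups of 26 and 23, and the other (chr10:79717644-79718220) in control 1 and HADA 2 with pileups of 19 and 21. At the first of these the relative heights of 0.338 and 0.284 were close to the control call limits of 0.241, 0.291 and 0.306. HADA 1 had no peak at the first region, with a call limit of 0.185. Neither region was listed in all libraries, so neither was tested for a difference between groups.

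At the secondary granule genes every listed peak was in a control library. Ltf encodes lactoferrin, the iron-binding protein of secondary granules. Its tallest region (chr9:110866303-110866880) lay in an intron 18370 bases past the canonical start, with relative heights of 0.509 in control 2 and 0.980 in control 3. Control 1 had no peak there, with a call limit of 0.155. The HADA libraries had none, with call limits of 0.130, 0.130 and 0.136, all below the heights listed in control 2 and 3. The Ltf start region (chr9:110848007-110848454), with its summit 103 bases before the start, was listed in control 3 alone with a relative height of 0.327 and a pileup of 16.

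Lcn2 encodes lipocalin 2, which binds the siderophores by which bacteria take up iron. Its region (chr2:32277638-32278616) lay 259 bases before the canonical start, in a coding exon of a longer transcript. It had relative heights of 0.362 in control 1 and 0.388 in control 3, and no peak in control 2, where the call limit was 0.218. In HADA libraries the call limits were 0.141, 0.156 and 0.160, below the control values. Regions listed in 2 or 3 control libraries and in no HADA library made up 5.45% of all regions, and the Ltf intron and the Lcn2 start were 2 of the 19 granule regions. No granule region was listed in all 3 control libraries and no HADA library, a pattern of 1.88% of all regions. None of the secondary regions was in all libraries, so none was tested. Without control 3, the Ltf intron rested on control 2 alone and the Lcn2 start on control 1 alone. Camp, the cathelicidin gene, and Ngp, the neutrophilic granule protein gene, lie on chromosome 9 with Ltf, 1170 kb and 600 kb from it, and had no peak in 6 libraries.

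Mmp8 encodes neutrophil collagenase. The region at its start (chr9:7558109-7558850) had its summit 135 bases before the start, within an intron of the antisense gene Gm31751. The relative heights were 0.431, 0.436 and 0.755 in control against 0.217, 0.221 and 0.160 in HADA libraries. No HADA library reached the lowest control library. The means were 0.541 ± 0.186 in control against 0.20 ± 0.0339 in HADA libraries (SD, n = 3 each). This was the largest difference among the granule regions tested, with a fall by 1.40 ± 0.263 (SE) on the log2 scale and a limma adjusted p of 0.0104. It was 2.64-fold in linear terms. Without control 3 it fell by 1.19 with an adjusted p of 0.00810. The call held with pileups over background (−1.02, adjusted p 0.00279) and was lost under quantile normalization (−0.97, 0.0569) and on the rank of the fold enrichment (−0.50 normal-score units, 0.154).

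The second Mmp8 region (chr9:7567132-7567765) lay 9039 bases past the start, with its summit in the last coding part of the gene. Its relative heights were 0.845, 0.709 and 1.49 in control libraries and 0.391 in HADA 1. HADA 2 and HADA 3 had no peak there, with call limits of 0.130 and 0.123. Regions with this pattern of 3 control libraries and 1 HADA library made up 2.33% of all regions. In control libraries this region was taller than the start region of the same gene, by 1.63 to 1.97 times. HADA 1 had the highest value of the HADA group at this region, and at the start it lay between HADA 3 and HADA 2.

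Mmp9 encodes gelatinase B, the enzyme that gives gelatinase granules their name. It held the most open chromatin of the set, with 7 regions. The tallest (chr2:164784513-164785480) lay in an intron of the longer transcripts, 5134 bases before the canonical start. Its pileups were 137, 100 and 170 in control against 145, 135 and 98 in HADA libraries. Relative heights were 2.36, 1.82 and 3.47 in control against 1.58, 1.75 and 1.21 in HADA libraries, which placed it above 76% of peaks or more in each library. The lowest control value (1.82) and the highest HADA value (1.75) lay close together. The log2 difference was −0.72 ± 0.268 (SE), with a limma adjusted p of 0.0620, which did not pass 0.05. Without control 3 it was −0.52 with an adjusted p of 0.103, while without control 2 it was −0.93 with an adjusted p of 0.0305, which passed. It did not pass without control 1 (0.105) or any HADA library (0.0991 to 0.208), or with pileups over background (−0.34, adjusted p 0.341). It passed under quantile normalization (−0.68, 0.0430) and with peaks of a −log10 q of at least 10 (−0.71, 0.0479).

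The region in the last part of Mmp9 (chr2:164793893-164795531) had relative heights of 0.690, 0.564 and 0.939 in control against 0.402, 0.455 and 0.457 in HADA libraries, again without overlap. It fell by 0.71 ± 0.217 (SE) on the log2 scale with a limma adjusted p of 0.0336, and by 0.56 with an adjusted p of 0.0344 without control 3. The call did not hold without control 1 (adjusted p = 0.0576) or without any of the HADA libraries (0.0873 to 0.110), and it was lost with pileups over background (−0.33, adjusted p 0.356) and under quantile normalization (−0.51, 0.141). Ranked by the authors' fold enrichment over local background, however, the Mmp9 regions turned round: the tallest was 0.14 and the last 0.96 normal-score units higher in HADA libraries, with limma adjusted p-values of 0.530 and 0.0599. The local background at the tallest region, by which the fold enrichment is divided, was 10.9, 7.09 and 13.98 times the library's genome-wide background in control against 8.36, 7.53 and 5.75 times in HADA libraries, and the groups overlapped. At the last region it was 8.24, 4.71 and 10.9 times in control against 4.52, 3.75 and 3.29 times in HADA libraries, and each control library lay above each HADA library. The part of the local background in the turn of direction was not tested.

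The canonical Mmp9 start (chr2:164789703-164790510) had relative heights of 0.948, 0.836 and 1.71 in control libraries and 0.457 in HADA 1. HADA 2 and HADA 3 had no peak there, with call limits of 0.416 and 0.444. These limits, taken at the median local background of the region, were close to the height of HADA 1. At the background of the nearest listed Mmp9 region of the same library they were 0.247 in both. By either measure they lay below all 3 control values. A region 2310 bases past this start (chr2:164792054-164792629) had 0.862 in control 1, 1.67 in control 3, 0.435 in HADA 1 and 0.296 in HADA 3, and was not listed in control 2 or HADA 2.

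The upstream Mmp9 region (chr2:164780708-164781184) went the other way. Its summit lay 456 bases past the most upstream annotated Mmp9 start, 9244 bases before the canonical start. It was listed in all HADA libraries, with relative heights of 0.489, 0.701 and 0.556, and in no control library, a pattern held by 7.01% of all regions. The control call limits were 0.397, 0.491 and 0.510 at the local background seen in HADA libraries. With the background of the nearest listed Mmp9 region of the same control library, the limits were 0.569, 0.491 and 0.286. The limit of control 2 lay within the range of the HADA heights by both measures, that of control 3 by the first and that of control 1 by the second, so a peak of that height could have gone unlisted there. The other Mmp9 regions were a region 2424 bases before the upstream start in control 3 (pileup 17) and an exonic region in HADA 2 (pileup 24). The map along Mmp9 shows the upstream summit in HADA libraries and the lower heights around the canonical start.

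**Figure D2:**
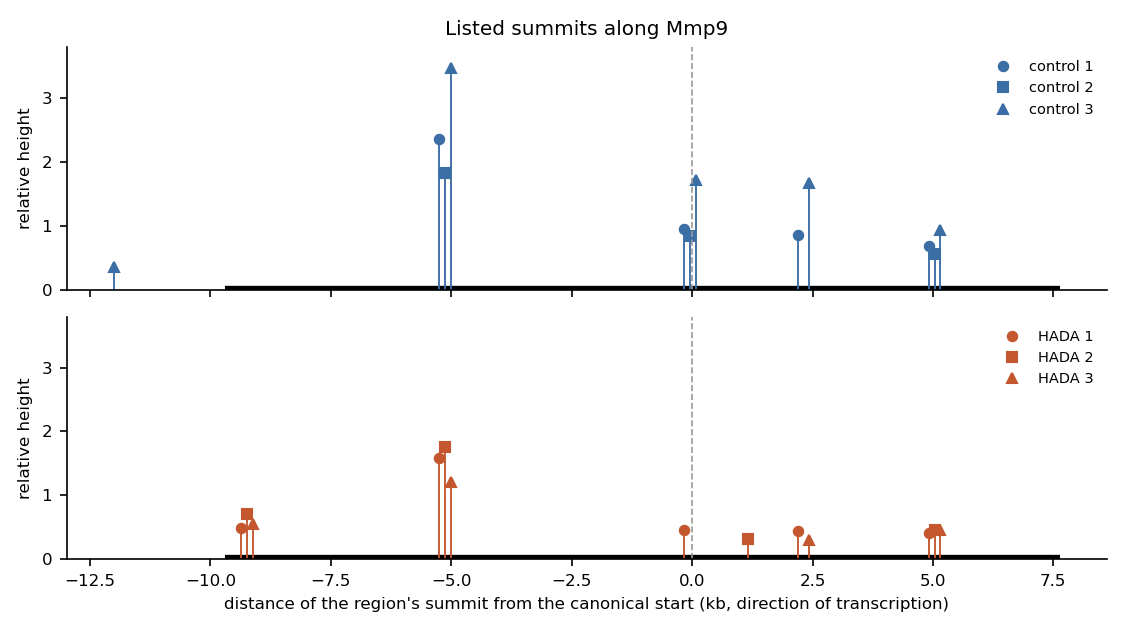
Relative height of listed Mmp9 summits in control (top) and HADA (bottom) libraries against distance from the canonical start in kb, with the gene body as a black bar and points of a region set slightly apart by library. The tallest summits of both groups lie 5134 bases before the canonical start, those 9244 bases before it are in HADA libraries alone, and at the canonical start (dashed line) 3 control libraries and 1 HADA library have a peak.

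Of the 19 granule regions 5 were listed in every library, where 38.1% of all regions were. At these 5 regions all HADA heights lay below all control heights. Over all shared regions 31.2% did so, and 29.3% had all HADA libraries above. With limma and an adjusted p of 0.05 as the threshold, 3 of the 5 were called lower in HADA libraries, against 24.1% of all shared regions, and 0 higher, against 17.9%. At an unadjusted p under 0.05 all 5 were lower, against 29% of all shared regions, and 0 were higher, against 23.5%. The exact permutation p was 0.1 for each of the 5, the smallest that 3 libraries against 3 can give. The direction held when pileups were divided by the library background, under quantile normalization and without any single library. On the rank of the fold enrichment the 3 regions at Prtn3, Elane and Mmp8 kept it and both Mmp9 regions did not, and 0 of the 5 were then called lower and 0 higher, where 4.78% and 6.56% of all shared regions were. With pileups over background, 1 of the 5 was called lower, at the Mmp8 start, where 18.3% of shared regions were lower and 31% higher. Under quantile normalization it was the tallest Mmp9 region alone, which was not among the 3, with an adjusted p of 0.0430, where 17.1% were lower and 22.5% higher. When regions in at least 3 libraries were fitted and unlisted values were put at the lowest pileup, 5 of 10 granule regions were lower and 1 was higher, where 22.1% and 22.7% of 44013 regions were. The higher one was the upstream Mmp9 region, whose control values were all filled in. Of the 5 lower ones, the second Mmp8 region and the canonical Mmp9 start were fitted in this setting alone and had 2 of 3 HADA values filled in. At the Mmp9 start and at the upstream Mmp9 region the filled values lay below the call limits of the libraries filled in. Their differences of −2.73 and 2.02 depend on the fill. At the second Mmp8 region the fills of 0.104 and 0.0988 lay below the call limits of 0.130 and 0.123, so its difference of −2.60 depends on them as well. The median log2 difference of all shared regions was −0.04, and dividing by the background moved it to 0.34.

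**Figure D3:**
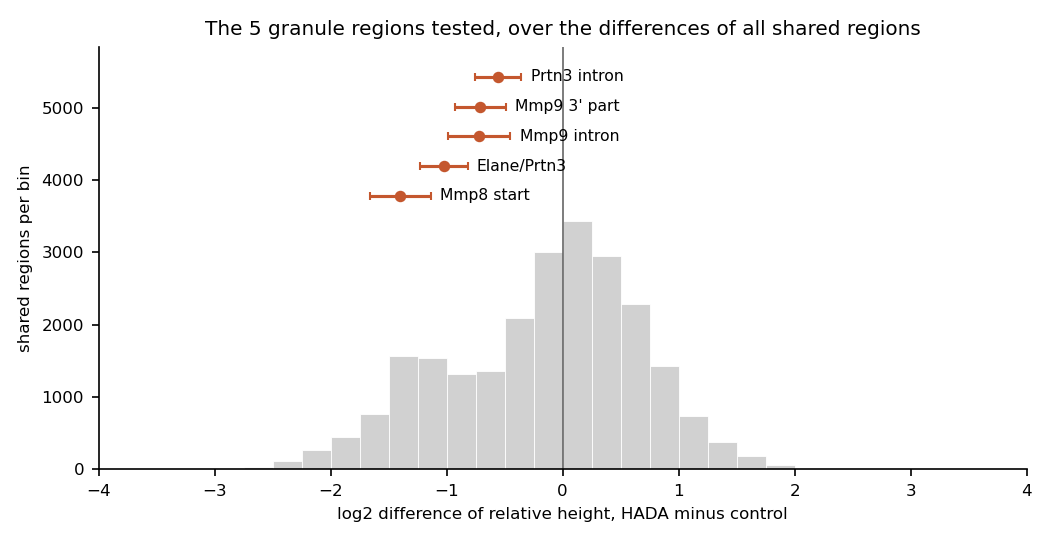
Histogram of log2 differences of relative height (HADA minus control) over 23970 shared regions in bins of 0.25, with the 5 granule regions tested as points and bars of 1 SE. All 5 points lie to the left of 0, between −0.56 and −1.40, within the range of the shared regions.

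The stages were compared by the tallest summit of each gene. For the 4 genes listed in every library the groups did not overlap, and the log2 difference of relative height was −0.53 for Prtn3, −1.03 for Elane, −0.72 for Mmp9 and −2.00 for Mmp8. Without control 3 they were −0.46, −0.87, −0.47 and −1.69. With pileups over background Prtn3 was at −0.15, Elane at −0.65 and Mmp9 at −0.34, and under quantile normalization Prtn3 was at −0.32 and Elane at −0.67, all moved by more than 1.5 times. The tallest summit was not the same region in every library. For Prtn3 it was the region shared with Elane in control 3 and the distal start shared with Plppr3 in HADA 2, and the Prtn3 intron alone gave −0.56. For Mmp8 it was the region in the last part of the gene in the control libraries and HADA 1 and the start in HADA 2 and HADA 3, and the start alone gave −1.40. Over all 12611 protein-coding genes with a peak in every library, 17.8% had all HADA libraries below all control libraries, 34% had them above, and the median log2 difference was 0.08. Averaged over the genes of a stage, with unlisted genes set at the lowest listed pileup of the library, the log2 difference was −0.68 for primary, −1.11 for secondary and −1.36 for tertiary genes. The lowest listed height itself differed by −0.50 between HADA and control libraries on the log2 scale. With the same lowest height in every library, a setting added after the data had been seen, the differences were −0.39, −0.55 and −1.36. Only the tertiary value, in which no gene was unlisted, did not depend on that choice. Without control 3 the differences with the library's own lowest height were −0.53, −0.83 and −1.08. The stages hold 4, 4 and 2 genes, and no test was made of one stage against another.

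Primary genes held 5, 2 and 4 peaks in control against 3, 5 and 4 in HADA libraries, and tertiary genes held 6, 5 and 7 in control against 7, 5 and 5 in HADA libraries. Both ranges overlapped. Secondary genes held 1, 1 and 3 peaks in control against 0 in each HADA library. Without control 3 the difference of the mean number went from −1.67 to −1.

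Genes that work with the granule proteins were also lower in HADA libraries at many regions. Of 17 granule partners, among them the protease activator Ctsc, the granule proteoglycan Srgn and the oxidase subunits Cybb and Cyba, 14 had a peak in all libraries, and 8 of these had all HADA libraries below all control libraries and 1 above, where 17.8% and 34% of all such genes did. Their median log2 difference was −0.91 (−0.63 without control 3), and limma called 15 of their 23 shared regions lower and 1 higher. For this list and those that follow, the share of all shared regions was 24.1% lower and 17.9% higher. Likewise, of all protein-coding genes with a peak in every library, 17.8% had all HADA libraries below all control libraries and 34% above. The 3 with the largest differences were Slc11a1, a metal transporter of granule and phagosome membranes, at −2.15, Lyz2, lysozyme, at −2.05, and Hp, haptoglobin, at −2.03. Cd177, a surface protein of neutrophils, was listed in control 3 alone, and Olfm4 and Chil3 were listed in no library. Ctsc, which activates the granule proteases and is used by other leukocytes as well, had a difference of 0.72, or 0.46 without control 3. Serpinb1a and Cybb, with overlapping groups, were at 0.35 and 0.19, or 0.20 and 0.39 without control 3.

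Of 8 transcription factors known from granulocyte development, all had a peak in every library, 4 had all HADA libraries below and 1 had them above, and the median log2 difference was −0.63 (−0.35 without control 3). Limma called 7 of 17 regions lower and 2 higher. Cebpd was at −1.56 and Cebpa at −1.03, both members of the C/EBP family. Gfi1, a repressor needed for neutrophil maturation, was at 1.08. Cebpe, the factor that switches on secondary granule genes, had overlapping groups with a difference of −0.25, or −0.0094 without control 3.

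Markers of whole cell types moved with these results. Among the 8 mature neutrophil genes, the 6 with a peak in every library all had HADA libraries below control libraries, with a median log2 difference of −2.10 (−1.66 without control 3), and limma called 8 of 8 shared regions lower. The largest differences were −2.46 for S100a9 and −2.31 for S100a8, the calprotectin subunits, and −2.14 for Fpr1, a formyl peptide receptor. The summed height of the list ran from 9.45 to 24.4 in control against 2.89 to 4.83 in HADA libraries. Among the 6 B cell genes, 4 had a peak in every library, all with HADA above control, with a median of 1.89 (1.26 without control 3), and limma called 6 of 6 regions higher. The summed height of B cell genes ran from 1.14 to 5.67 in control against 12.1 to 12.4 in HADA libraries. Ms4a1 was at 1.97 and Pax5 at 1.81, and without control 3 they were at 1.27 and 1.25.

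The summed heights by library set the granule stages beside these lists. Primary genes summed to 1.00, 1.15 and 1.49 in control against 0.630, 0.649 and 0.667 in HADA libraries. In control 3 the tallest summit of Elane and of Prtn3 was the same region, at 0.633, so it enters the 1.49 for both genes. Secondary genes summed to 0.362, 0.509 and 1.37 in control against 0 in HADA libraries. Tertiary genes summed to 3.21, 2.53 and 4.96 in control against 1.97, 1.97 and 1.37 in HADA libraries. Control 3 was the highest library for every granule stage and for the mature neutrophil genes, and the lowest for B cell genes. The part of the share of neutrophils and B cells in the differences at granule genes was not tested.

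**Figure D4:**
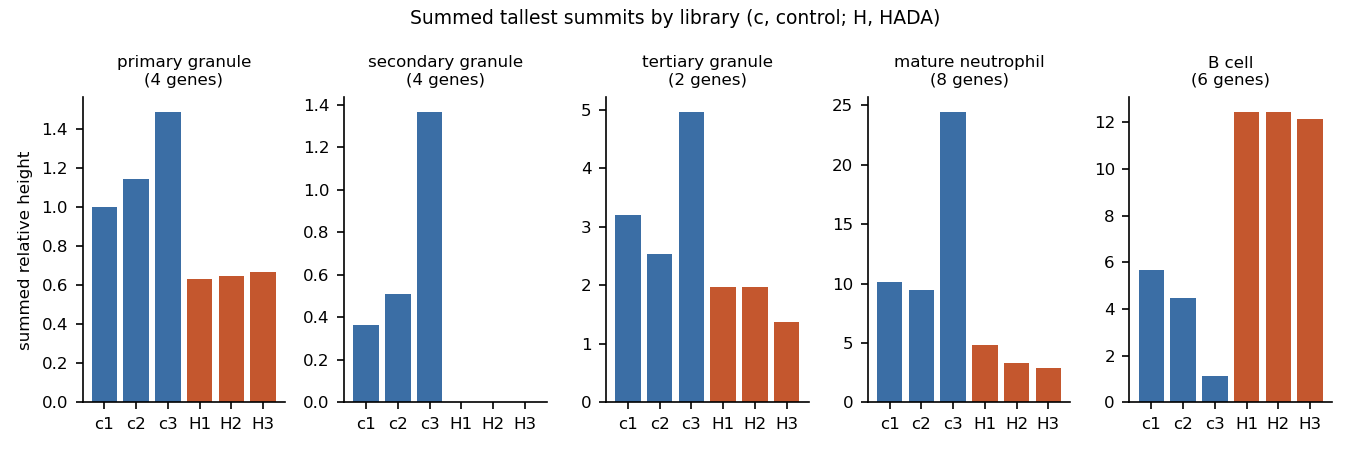
Summed relative height of the tallest summits of each gene list in every library (c1 to c3 control, H1 to H3 HADA), with a separate vertical axis from 0 for each list and an unlisted gene counted as 0. Granule and mature neutrophil genes are highest in control 3, and B cell genes stand above 12 in all HADA libraries and below 6 in all control libraries.

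Immature cells are the known site of primary granule gene transcription. Among 5 progenitor genes Cd34 and Gata2 were listed in no library and Kit in control 2 alone. Flt3, which some lymphoid and dendritic cells also use, was at 1.40 and Myb at 0.30, or 1.22 and 0.55 without control 3. At Myb the groups overlapped, and its shared regions went both ways. The region chr10:21020503-21021360 was at −2.13 with a limma adjusted p of 0.0086, and the others were at 0.72 (0.0232) and 0.40 (0.0903). These Myb regions are counted in the transcription factor list as well. The summed height of the progenitor list ran from 1.65 to 1.73 in control against 2.91 to 3.15 in HADA libraries, and limma called 1 of 8 regions lower and 4 higher. Among 6 monocyte genes, 5 had a peak in every library, with a median log2 difference of −0.94 (−0.80 without control 3), 4 with all HADA libraries below and 1 above, and limma called 5 of 6 regions lower and 0 higher. Fcgr1 was at −1.13 and Csf1r at −0.94. Ly6c2, a marker of classical monocytes, was the gene with all HADA libraries above, at 0.75, and Ccr2 was listed in control 2 and in all 3 HADA libraries. Monocytes also use granule genes such as Lyz2, and their part in the differences was not tested.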

How the data were processed

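ATAC-seq peak lists of 3 control and 3 HADA mice were used. The authors used Trimmomatic for trimming, Bowtie2 for alignment to GRCm39, Picard against duplicates and MACS2 for peaks of each library by itself, per the labels and the study's methods. Options and versions are not given in the sources used here, nor is a correction for the offset of Tn5 cuts. For every peak the deposited columns hold the fold enrichment ratio of the summit over its local background, the p-value and the q-value as −log10, a score that follows the q-value, and the summit position. The whole-number summit pileup and the local background were solved from the fold and the −log10 p-value, and returned 100% of deposited p-values within 0.05 on the −log10 scale. Total reads were not analysed here, and the background pileup stands for depth.

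Peaks sharing 1 bp on the 21 main chromosomes were merged. Log2 relative heights were compared with limma 3.58.1 in R 4.3.3, without a covariate and with Benjamini-Hochberg adjustment over all shared regions. The fit and the solved pileups were tested on simulated data. Genes, starts and sequence came from GENCODE M39 and GRCm39, and 0 peaks ended beyond a chromosome. Each tested granule summit had 1 copy of its 50 central bases in the genome. No source says that replicates came from separate rounds of exposure, so p-values measure the spread between these libraries.

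The 10 members, the 10 context lists and the tests were chosen with earlier results of these data known. All members are named. Of each context list, counts and the 3 genes with the largest difference are given, except some that are not reported here, and other genes named from the lists were picked after values were seen. The spreads given are SDs and SEs between libraries, and no interval from counting is given.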

Additional observations from a re-analysis of the deposited data

How the results depend on the processing

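Of the granule regions, 3 were called lower (Elane and Prtn3, the Mmp8 start and the last Mmp9 region). The count was 0 on the rank of the fold enrichment and 1 with pileup over background (the Mmp8 start). Under quantile normalization it was 1, the tallest Mmp9 region, which was not among the 3. With a −log10 q of at least 5 it was 0 of 2 regions left (Prtn3 intron and tallest Mmp9), and with at least 10 it was 1 of 1, the tallest Mmp9 region, so none of the 3 was fitted there. Of all regions fitted, 4580 of 20572 were lower and 3963 higher with at least 5, and 3422 of 16340 lower and 3131 higher with at least 10. With summits within 250 bp merged the count was 2 of 3, the Prtn3 intron and the Mmp8 start, where 4656 of 20704 regions were lower and 3679 higher. The Elane and Prtn3 region and the last Mmp9 region were not fitted in that setting. Regions in at least 3 libraries, with unlisted values at the lowest pileup, gave 5 lower and 1 higher of 10, and the higher one was the upstream Mmp9 region, whose control values were all filled in. The count ran from 2 to 4 with a library left out. Of all regions fitted, 2021 of 24615 were lower and 737 higher without HADA 2, and 5822 of 24153 lower and 4793 higher without control 1. The Elane and Prtn3 region and the Mmp8 start kept an adjusted p under 0.05 with each library left out, while the last Mmp9 region lost it without control 1 (0.0576) or any HADA library (0.0873 to 0.110). Replicate numbers did not pair the samples (correlations of deviations −0.0797, 0.0752 and −0.376), and a replicate block gave 2 calls, with the last Mmp9 region at 0.0507. With the block 5660 of 23970 shared regions were lower and 2991 higher.

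The stage difference for primary, then secondary genes was −0.30 and −0.73 with pileup over background, −0.26 and −0.57 under quantile normalization, −0.33 and −0.67 with a window of gene body and 10 kb, and −0.39 and −0.55 with the same floor in every library. The tertiary difference stayed between −1.58 and −0.98. Differences in mean peak number, HADA minus control, were 0.333 for primary, −1.67 for secondary and −0.333 for tertiary genes. The primary value turned to −0.333 with a −log10 q of at least 10 and to −1.33 when the 34045 strongest peaks of each library were kept, and ran from −0.5 to 1 with a library left out. The primary value turned without control 2 (−0.5) and without HADA 2 (−0.167). The secondary value ran from −2 to −1 with a library left out, the latter without control 3, and was −0.667 with a −log10 q of at least 10. The tertiary value was −2.33 with an equal number of strongest peaks, 0.333 with starts only, and ran from −1 (without HADA 1) to 0.167 (without control 3). At Mpo and at parts of Prtn3 the listed heights lay near the call limits of the libraries without a peak, so depth limits what can be said there. The cause of these changes was not tested.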

Other observations

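Of the other lists, 5 of 6 T cell genes had a peak in every library, with a median log2 difference of 0.06 (0.09 without control 3), and limma called 0 of 9 regions lower and 2 higher. Lck was at 0.90, Cd3e at 0.55 and Cd3d at −0.31, the last at −0.07 without control 3. Among 5 NK cell genes Prf1, the perforin gene, had a peak in every library, at 0.32 (0.08 without control 3), and its 1 region passed in neither direction. Among 5 eosinophil and basophil genes Prg2 was at 1.35 and Siglecf at −0.59 (1.13 and −0.52 without control 3), with 2 of 3 regions lower and 1 higher, and Epx and Mcpt8 were not listed anywhere. Among 5 erythroid and platelet genes Klf1 was at 0.64 and Itga2b at 0.44 (0.71 and 0.33 without control 3), with 2 of 3 regions higher.

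Among 12609 other protein-coding genes with a peak in every library, the pattern of tallest summits over 6 libraries nearest to the mean of Mmp8 and Mmp9 was that of Rbms2, with a distance of 0.207 on the centred log2 scale, followed by Fabp12 (0.233) and Nsmaf (0.236), where the median distance of all genes was 1.97. The relative height of Rbms2 was 1.19, 1.07 and 1.92 in control against 0.674, 0.597 and 0.420 in HADA libraries. The same could not be asked for secondary granule genes, since none was listed in every library.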
